A study of Mus musculus with 6 samples.

Results

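The D-type cyclins, their kinase partners, the inhibitors of those kinases and the retinoblastoma gene were examined in mouse colorectal cancer spheroids grown with or without palmitate. The members were the rows of the raw count table whose gene symbol was Ccnd1, Ccnd2, Ccnd3, Cdk4, Cdk6, Cdkn1b, Cdkn1c, Cdkn2a, Cdkn2c or Rb1. All 10 were found among the 23399 genes of the table, and all 10 passed the filter on low counts that left 14987 genes for testing. The samples were spheroids of CMT93, an established mouse cell line labelled colorectal cancer and wildtype, grown on soft agar with 0.25% Matrigel in medium with 10% serum. In the palmitate group 3 samples received 200 µM of this saturated fatty acid as sodium palmitate bound to bovine serum albumin (BSA), and in the vehicle group 3 samples received ethanol and BSA alone, so ethanol and albumin were common to both groups. Cells were kept under their treatment for 1 week as a monolayer and for 5 days as spheroids before polyadenylated RNA was sequenced. All samples are of 1 cell line, and the labels do not name separate cultures for the replicates, so p-values here weigh differences against a spread among libraries that may be only technical.

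Progress from G1 into S phase is controlled by the retinoblastoma protein, which holds E2F transcription factors in check until it is phosphorylated. The D-type cyclins respond to growth signals and pair with the kinases CDK4 and CDK6 to begin that phosphorylation, and cyclin E with CDK2 completes it. INK4 inhibitors bind CDK4 and CDK6 directly, whereas CIP/KIP inhibitors bind cyclin-CDK complexes, chiefly those of CDK2. In the intestinal epithelium D-type cyclins are known as outputs of WNT and growth factor signalling in dividing crypt cells.

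Libraries held 18.9 to 22.9 M counts, with the 3 palmitate libraries deeper than all vehicle libraries. After thinning to the shallowest total, 8 members were called, as without thinning. Epithelial markers were abundant, with a summed level of 7279 to 7355 CPM (counts scaled to a common library size with TMM factors) with vehicle and 6659 to 6756 CPM with palmitate over the 8 markers in the table. The 6 fibroblast and endothelial markers in the table summed to 4.15 to 4.19 CPM with vehicle and 2.53 to 2.91 CPM with palmitate, and the 4 immune markers to 0.910 to 1.21 and 0.528 to 0.671 CPM. None of these 10 markers of other cells was at 0 in all libraries, and each was under 3 CPM in each library, as was the epithelial marker Cdx2. All 3 sums were lower with palmitate, and the part of this in the values of the members was not tested. Single epithelial markers went both ways. Krt18 (log2 fold change -0.42), Krt8 (-0.24) and Cdh1 (-0.045) were called lower, and Krt19 (0.13) and Cdx2 (0.51) higher. Epcam, Vil1 and Lgals4 were not called. In bulk RNA, fewer cells in a phase or of a type and less RNA per cell cannot be told apart.

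With palmitate 6 of the 10 members rose and 2 fell at an adjusted p under 0.05 by the two-sided quasi-likelihood test of edgeR, with Benjamini-Hochberg adjustment over all genes tested, and 2 were not called. Over all genes tested 52.8% were called, 27.4% higher and 25.4% lower. Those that rose were the cyclins Ccnd1 and Ccnd2, the kinase Cdk6, the INK4 inhibitors Cdkn2a and Cdkn2c, and Rb1. Of these Cdkn2a was the least sure: its groups overlapped, and its call was lost in 4 of 12 alternatives to this processing. Those that fell were the kinase Cdk4 and the scarce CIP/KIP inhibitor Cdkn1c. The median log2 fold change (palmitate minus vehicle) of the members was 0.10, against 0.00068 over all genes tested, and the median absolute change was 0.15 in both. Changes beyond 1.2-fold were called for 4 members (Ccnd2, Cdkn2c, Rb1 and Cdkn1c), against 25.1% of all genes tested (10.7% higher and 14.4% lower).

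**Figure D1:**
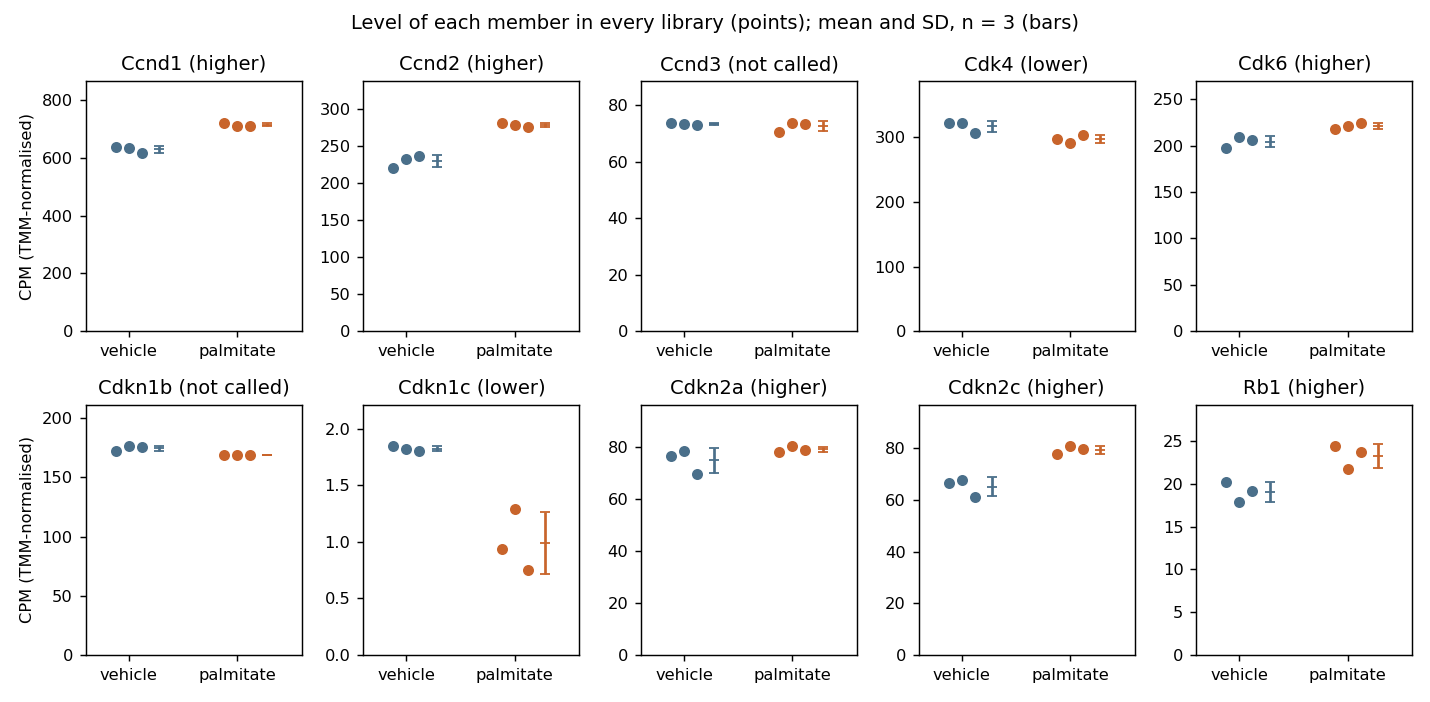
Level of each of the 10 members in every library, in TMM-normalised CPM on a linear axis from 0, with vehicle in blue and palmitate in orange; points are libraries and bars the mean and SD (n = 3). Palmitate points lie wholly above vehicle points for Ccnd1, Ccnd2, Cdk6, Cdkn2c and Rb1, and wholly below for Cdk4, Cdkn1b and Cdkn1c.

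Of the D-type cyclins, Ccnd1 and Ccnd2 rose and Ccnd3 was not called. Ccnd1 (ENSMUSG00000070348.6), which encodes cyclin D1, had 637, 635 and 616 CPM in the vehicle libraries and 722, 711 and 712 CPM in the palmitate libraries. The groups did not overlap. CPM ranges were also separate for 57.8% of all genes tested, with palmitate higher in 29.7% and lower in 28.1%, against 5 members higher and 3 lower. For Ccnd1 the palmitate mean was 715 ± 6.05 CPM against 630 ± 11.5 CPM (SD, n = 3 libraries per group; edgeR log2 fold change 0.18 with SE 0.0162 and adjusted p = 2.33e-17). Ccnd2 (ENSMUSG00000000184.13), encoding cyclin D2, had 220, 232 and 236 CPM with vehicle and 281, 278 and 275 CPM with palmitate. Every palmitate library was above every vehicle library, and the rise was 1.21-fold (edgeR log2 fold change 0.28 with SE 0.0205 and adjusted p = 5.30e-21). Ccnd3 (ENSMUSG00000034165.17), encoding cyclin D3, had 73.8, 73.5 and 73.1 CPM with vehicle and 70.6, 73.8 and 73.5 CPM with palmitate. These ranges overlapped, and the log2 fold change of -0.017 had a 95% interval from -0.08 to 0.047 (adjusted p = 0.692, edgeR), so a change as large as that of Ccnd1 lay outside the interval.

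The kinases moved in opposite directions by small amounts. Cdk4 (ENSMUSG00000006728.13) had 322, 322 and 307 CPM with vehicle and 298, 292 and 304 CPM with palmitate. The lowest vehicle library was above the highest palmitate library by a narrow margin, and the fall was 1.06-fold (edgeR log2 fold change -0.09 with SE 0.0194 and adjusted p = 4.95e-05). Cdk6 (ENSMUSG00000040274.12), the alternative partner of the D-type cyclins, had 197, 209 and 206 CPM with vehicle and 217, 221 and 225 CPM with palmitate. Its groups did not overlap either, and it rose 1.08-fold (edgeR log2 fold change 0.11 with SE 0.0212 and adjusted p = 3.44e-06). The direction and the call of both kinases held in each of the 12 alternatives tried, which included another scaling: Cdk4 ranged from -0.11 to -0.07 and Cdk6 from 0.09 to 0.13 on the log2 scale.

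The 2 kinase genes also differ in the sequence before their start sites. Promoter windows from RefSeq (GRCm38.p6, 250 bases before to 50 after a start) were matched by symbol for 6 of the 10 members, in 9 windows. Ccnd1, Ccnd2, Cdkn1c and Rb1 had no window, so nothing is said of their promoters. The windows were searched on both strands for the E-box CACGTG, the letters that MYC family dimers bind, which is its own reverse complement. The Cdk4 window held 4 copies, all upstream of the start, and the Cdk6 window held 1. Of all 32851 windows 7.15% held any, and the share with as many as 4 was not counted. The second Cdkn2c window also held 1, downstream of its start, and the other 6 windows of members held 0. The upstream stretches are shown with the E-box in capitals, for Cdk4 at chr10:127063345-127063534 on the plus strand and for Cdk6 at chr5:3343643-3343832 on the plus strand.
Cdk4: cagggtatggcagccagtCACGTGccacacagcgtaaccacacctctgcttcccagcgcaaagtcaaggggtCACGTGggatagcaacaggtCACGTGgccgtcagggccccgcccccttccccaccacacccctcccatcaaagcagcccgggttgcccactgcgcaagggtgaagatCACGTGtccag
Cdk6: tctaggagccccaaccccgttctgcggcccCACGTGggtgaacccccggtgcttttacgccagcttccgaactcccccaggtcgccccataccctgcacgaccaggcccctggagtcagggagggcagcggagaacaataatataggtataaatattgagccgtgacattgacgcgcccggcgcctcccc
A match describes the letters only and is not a measured site. Genes whose products bind the E-box were also measured, and Myc, Mycn, Max, Mxd1, Mxd4 and Mnt belong to the list of G1 inputs. Myc had 60.7, 58.2 and 63.6 CPM with vehicle and 59.1, 56.4 and 56.1 CPM with palmitate. Its groups overlapped, and its log2 fold change of -0.09 was called (adjusted p = 0.0310, edgeR), but not with DESeq2 (adjusted p = 0.129), with no count filter, after thinning to the shallowest library, or when vehicle replicate 1, vehicle replicate 3, palmitate replicate 2 or palmitate replicate 3 was left out (log2 fold changes -0.09, -0.06, -0.08 and -0.07). Mycn, a paralogue of Myc, rose from 15.3 ± 0.302 to 27.7 ± 1.78 CPM, and Mxd1, whose product opposes MYC at the same letters, fell from 67.8 ± 1.57 to 48.8 ± 1.86 CPM (SD, n = 3 libraries each). Max, the shared dimer partner, rose (log2 fold change 0.24), and the repressors Mxd4 (-0.20) and Mnt (-0.08, adjusted p = 0.0468, edgeR) fell. Mycn and Mxd1 were named as among the smallest p of their list, and Max, Mxd4 and Mnt after their values were seen. Whether any of these genes had a part in the values of Cdk4 or Cdk6 was not tested.

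**Figure D2:**
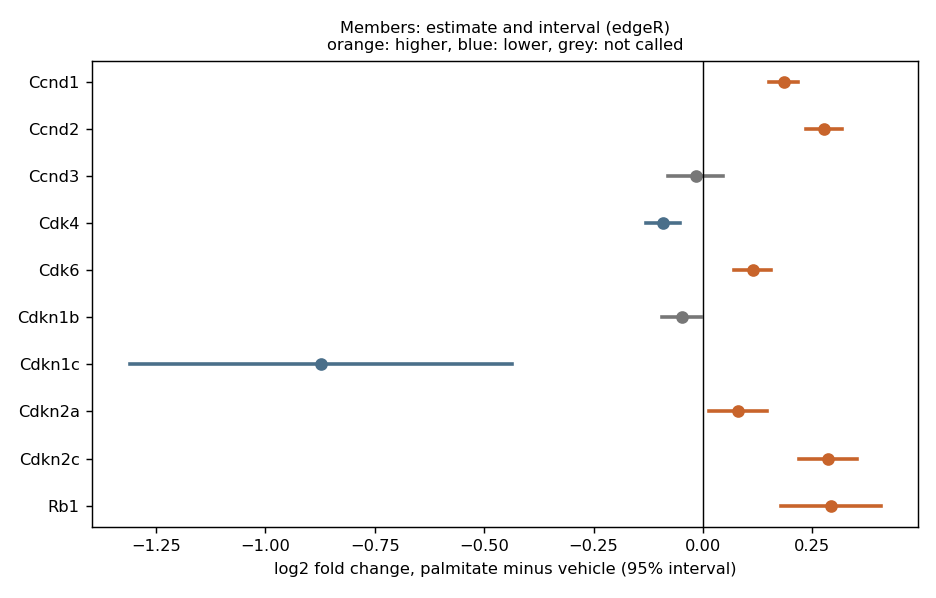
Log2 fold change of each member, palmitate minus vehicle, with its 95% interval from the edgeR fit; orange marks a called rise, blue a called fall and grey no call. The interval of Cdkn1c, from -1.31 to -0.44, is the widest of the 10, and those of Ccnd3, Cdkn1b, Cdk4, Cdk6 and Cdkn2a are narrow and lie near 0.

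Among the INK4 inhibitors Cdkn2c rose most clearly. Cdkn2c (ENSMUSG00000028551.15), encoding INK4c, had 66.6, 67.7 and 61.0 CPM with vehicle and 77.7, 80.7 and 79.6 CPM with palmitate. The groups were well apart relative to their spread, and the rise was 1.22-fold (edgeR log2 fold change 0.29 with SE 0.0336 and adjusted p = 7.57e-12). Cdkn2a (ENSMUSG00000044303.7) had 76.5, 78.7 and 69.7 CPM with vehicle and 78.1, 80.3 and 79.0 CPM with palmitate. Only vehicle replicate 3 was clearly lower than the rest, and the groups overlapped. Its log2 fold change of 0.08 was called (SE 0.0332, adjusted p = 0.0374, edgeR) but fell to 0.03 without vehicle replicate 3 (adjusted p = 0.570), and the call was also lost without palmitate replicate 2 or 3 (adjusted p = 0.113 and 0.0708) and with DESeq2 (adjusted p = 0.190). The other INK4 genes were not members: Cdkn2b, which encodes INK4b, was at 17.4 ± 0.654 and 17.3 ± 0.798 CPM and was not called (adjusted p = 0.866, edgeR), and Cdkn2d, which encodes INK4d, rose from 19.1 ± 0.996 to 22.5 ± 0.750 CPM (adjusted p = 0.000224, edgeR; SD, n = 3 libraries each).

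Cdkn2a uses separate first exons for INK4a and ARF, which share later exons, so a count per gene does not say which of the products was measured. Both starts have a RefSeq window. They are numbered from the upstream start, not by the order in which INK4a and ARF are named here, and the windows name no product. The stretch from 120 bases upstream to the base before each start is shown to set them beside Cdkn2c. Capitals mark the E2F motif, searched on both strands as the word TTCCCGC or, in its place, TTCGCGC or the word TTGCCGC or, lastly, the word TTGGCGC. Any of these was held by 9.57% of all windows. The first start lies on the minus strand after chr4:89294620-89294739, the second after chr4:89282193-89282312, and the first Cdkn2c start after chr4:109666757-109666876, also on the minus strand.
Cdkn2a, first start: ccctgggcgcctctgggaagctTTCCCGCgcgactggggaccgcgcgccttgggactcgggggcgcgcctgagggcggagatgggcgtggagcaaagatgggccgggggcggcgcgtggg
Cdkn2a, second start: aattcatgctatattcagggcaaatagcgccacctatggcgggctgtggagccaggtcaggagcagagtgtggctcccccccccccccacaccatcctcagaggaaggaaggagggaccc
Cdkn2c, first start: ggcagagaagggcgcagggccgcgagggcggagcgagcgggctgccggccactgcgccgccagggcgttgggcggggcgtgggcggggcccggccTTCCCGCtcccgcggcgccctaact
The first window of each gene held 1 motif, and the second window of each gene held 0. No E2F motif was found in the windows of Cdk4, Cdk6, Cdkn1b or Ccnd3, which says only that these letters are not in these windows.

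The CIP/KIP members did not rise. Cdkn1b (ENSMUSG00000003031.15), encoding KIP1, a brake on cyclin E complexes and an assembly factor for cyclin D complexes, had 172, 176 and 175 CPM with vehicle and 169, 169 and 169 CPM with palmitate. All vehicle libraries were above all palmitate libraries, yet the difference was small and was not called (log2 fold change -0.049, 95% interval -0.092 to -0.0050, adjusted p = 0.0549, unadjusted p = 0.0294, edgeR). It was called with DESeq2's size factors (adjusted p = 0.0395) and without vehicle replicate 1 (adjusted p = 0.0415). Cdkn1c (ENSMUSG00000037664.14), the imprinted gene of KIP2, was scarce, with 35, 40 and 39 counts in the vehicle libraries and 21, 29 and 17 in the palmitate libraries. In CPM these were 1.84, 1.82 and 1.80 against 0.940, 1.29 and 0.749, with no overlap and a wider spread among palmitate libraries. It fell 1.83-fold (edgeR log2 fold change -0.87 with SE 0.220 and adjusted p = 0.000477), and without 1 library the log2 fold change was -1.10 to -0.70. Cdkn1a, which encodes CIP1 and is a p53 target but no member, rose from 18.0 ± 0.952 to 29.5 ± 0.440 CPM (SD, n = 3 libraries each; log2 fold change 0.71, adjusted p = 1.42e-20, edgeR).

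Rb1 (ENSMUSG00000022105.7), the target of the cyclin D kinases, had 20.2, 17.9 and 19.2 CPM with vehicle and 24.4, 21.7 and 23.8 CPM with palmitate. The groups did not overlap, and Rb1 rose 1.23-fold (edgeR log2 fold change 0.29 with SE 0.0573 and adjusted p = 8.76e-06). Its relatives Rbl1 and Rbl2, the other pocket protein genes, rose as well. Rbl1 went from 103.8 ± 0.437 to 114 ± 2.42 CPM, and Rbl2 went from 72.6 ± 0.652 to 82.7 ± 0.835 CPM (adjusted p = 6.28e-06 and 2.31e-07, edgeR; SD, n = 3 libraries each). In the Gencode vM21 annotation Lpar6, a receptor gene, lies inside Rb1 on the opposite strand. Lpar6 had 431 to 602 counts per library, against at least 383 for Rb1, and rose too (log2 fold change 0.19, adjusted p = 0.00121, edgeR). Rcbtb2 also overlaps Rb1 on the opposite strand, with 527 to 615 counts per library, and was not called (log2 fold change -0.042, adjusted p = 0.509, edgeR). Genes on the opposite strand also overlap Ccnd1 (LTO1, 374 to 517 counts, higher), Ccnd3 (Bysl, 781 to 1054 counts, higher) and Cdk4 (Tspan31, 1855 to 2153 counts, not called). The library kit keeps strand, but use of strand in counting is not stated in the sources at hand. Without it, reads from sequence that both genes of a pair share cannot be assigned to either. These overlaps are of whole gene spans, and how much of them lies in exons was not measured.

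Levels of different members were compared per kilobase of exon, as CPM divided by the union of the gene's exons. On this scale the order was the same with vehicle and with palmitate: Ccnd1, Cdk4, Cdkn2a, Cdkn1b, Ccnd2, Cdkn2c, Cdk6, Ccnd3, Rb1 and Cdkn1c. Ccnd1 led with 134 ± 2.43 CPM per kilobase with vehicle and 152 ± 1.29 with palmitate, and Cdkn1c was last with 0.893 ± 0.0106 and 0.486 ± 0.134 (SD, n = 3 libraries each). Neighbours in this order had separate ranges except Ccnd2 and Cdkn2c, whose ranges overlapped in each group. The order rests on gene models: with the longest coding transcript in place of the exon union, Ccnd3 stood at 34.8 in place of 8.37 CPM per kilobase with vehicle and moved above Cdkn2c and Cdk6, and Ccnd2 and Cdkn1b changed places with palmitate.

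The make-up of the cyclin D and kinase pools shifted slightly, as descriptions with no test. The D-type cyclins together had 167, 168 and 164 CPM per kilobase with vehicle and 191, 189 and 189 with palmitate. Ccnd1 made up 80.3 ± 0.643% of this sum with vehicle and 80.1 ± 0.125% with palmitate, Ccnd2 14.6 ± 0.625% and 15.6 ± 0.0786%, and Ccnd3 5.03 ± 0.0402% and 4.36 ± 0.139% (SD, n = 3 libraries each). The Ccnd1 shares overlapped between the groups, the Ccnd2 shares were higher and the Ccnd3 shares lower in every palmitate library. With the longest coding transcript the Ccnd3 share was 14.5% with vehicle and 12.8% with palmitate, again lower in every palmitate library. The Ccnd1 share was then 70.3% with vehicle and 71.0% with palmitate, again with overlap, and its small difference changed sign. The ratio of Cdk4 to Cdk6 per kilobase was 7.03, 6.63 and 6.43 with vehicle and 5.90, 5.69 and 5.82 with palmitate. Such a ratio within a library does not depend on the scaling between libraries, and every palmitate value lay below every vehicle value. Its size does depend on the length used. With vehicle, Cdk4 made up 87.0% of the summed Cdk4 and Cdk6 on this scale. Its share was 60.8% in CPM without length and 89.7% with the longest coding transcript. On each scale the share was lower in every palmitate library. The ratio of summed D-type cyclins to summed Cdk4 and Cdk6 was 1.475, 1.473 and 1.504 with vehicle and 1.78, 1.79 and 1.72 with palmitate.

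**Figure D3:**
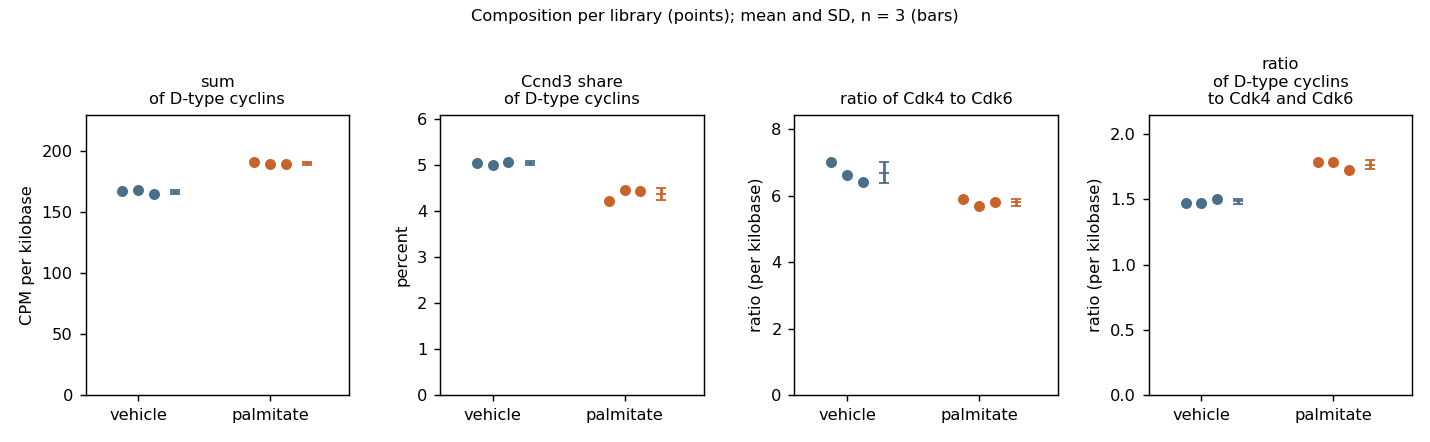
Composition per library, per kilobase of exon: the summed D-type cyclins, the share of Ccnd3 in that sum, the ratio of Cdk4 to Cdk6, and the ratio of the D-type cyclins to both kinases, with points for libraries and bars for the mean and SD (n = 3). In the 4 panels the palmitate points do not overlap the vehicle points, and axes start at 0.

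The rest of the G1/S machinery was read from a list of 32 genes that holds no member, all of them tested. Of these 16 rose, 5 fell and 11 were not called, against 27.4% higher and 25.4% lower over all genes tested, with a median log2 fold change of 0.09. Ccne1 and Ccne2, the cyclin E genes, rose, Ccne1 from 17.5 ± 1.05 to 22.9 ± 1.29 CPM and Ccne2 from 26.1 ± 1.42 to 31.9 ± 0.881 CPM, while their kinase Cdk2 was not called, at 67.6 ± 4.40 and 71.1 ± 0.804 CPM (log2 fold change 0.07, adjusted p = 0.0836, edgeR). The log2 fold change of Cdk2 was 0.11 and called without vehicle replicate 2 (adjusted p = 0.0115, edgeR), and 0.02 without vehicle replicate 1. E2f1, an activating E2F, rose from 52.2 ± 0.912 to 66.1 ± 1.54 CPM, and its dimer partner Tfdp1 from 128 ± 2.38 to 163 ± 2.75 CPM. Mybl2, a partner of the MuvB complex, rose from 53.0 ± 0.779 to 67.6 ± 1.09 CPM (SD, n = 3 libraries each). The 5 that fell were Ccna2 (-0.11), E2f2 (-0.13), E2f5 (-0.30), Cdk7 (-0.14) and Rbbp4 (-0.11), given with log2 fold changes and named after their values were seen. Without palmitate replicate 3, and with DESeq2 or thinning to the shallowest library, 3 genes of this list were called lower.

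Most genes in a list of those that E2F factors are known to drive rose. In this list of 28 such genes, with no overlap with the members or the G1/S list, 25 rose, 0 fell and 3 (Mcm7, Tyms and Dnmt1, named after their values were seen) were not called, with a median log2 fold change of 0.18. The share called higher over all genes tested was 27.4%. The lists were chosen with earlier results of these data known. Genes of the G1/S list, of which 16 rose and 5 fell, were left out here whether or not E2F factors drive them. The count of 0 that fell therefore depends on how genes were split between the lists. Rrm2, a ribonucleotide reductase subunit, and Pcna, the replication clamp, had log2 fold changes of 0.57 and 0.44. Mcm5, a helicase subunit, and Brca1, a repair gene, had 0.31 and 0.36. The proliferation marker Mki67 had 610, 584 and 607 CPM with vehicle and 675, 658 and 667 CPM with palmitate (log2 fold change 0.15, adjusted p = 5.67e-13, edgeR). Whether a change in the share of cycling cells had a part in the values of the members was not tested.

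Genes of cyclin D turnover and of input to G1, some of which act on the inhibitors, moved in both directions. In a list of 33 genes for cyclin D turnover and input to G1, 16 rose, 10 fell and 7 were not called, with a median of 0.03. The shares over all genes tested were 27.4% higher and 25.4% lower. Mycn had the smallest p of the list, and Bmi1, a polycomb gene that represses Cdkn2a, rose from 105 ± 2.95 to 134 ± 3.27 CPM, whereas Foxo1, a forkhead factor that activates Cdkn1b, fell from 135 ± 2.88 to 110.0 ± 3.42 CPM (SD, n = 3 libraries each). Foxo3, the other FOXO gene of the list, went the other way and rose slightly (log2 fold change 0.09, adjusted p = 0.0321, edgeR). Foxo3 was named after its values were seen. With DESeq2 17 genes of this list were called in place of 26. The number called lower was 6 without vehicle replicate 3 or palmitate replicate 3 and with no count filter, and 5 with DESeq2.

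**Figure D4:**
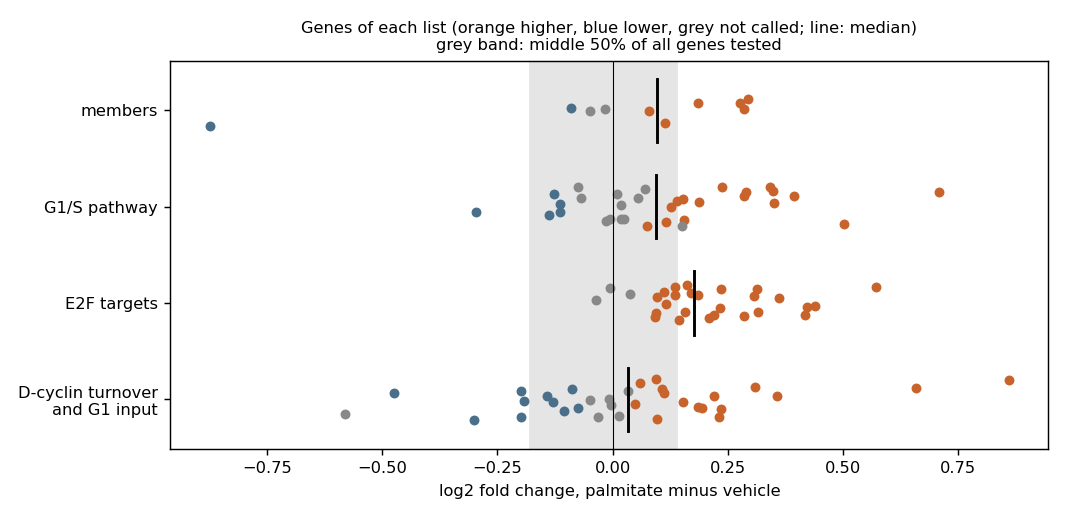
Log2 fold change, palmitate minus vehicle, of every tested gene in the members and the 3 lists, with orange for called rises, blue for called falls, grey for no call and a black line at each median; the grey band holds the middle 50% of all genes tested. The medians are 0.10, 0.09, 0.18 and 0.03, and no gene of the E2F list, which leaves out the G1/S list, was called lower.

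Of the 10 members, 7 had a q-value under 0.05 in the authors' deposited table, and for all 10 its log2 fold change had the same sign as here. The one member on the other side of the threshold was Cdkn2a, with a log2 fold change of 0.08 and a q-value of 0.186 in the authors' deposited table. Cdkn1b had a q-value of 0.267 there and Cdkn1c one of 0.0223.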

How the data were processed

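Polyadenylated RNA of 3 vehicle and 3 palmitate samples was sequenced, with a library kit that keeps strand per the labels' protocols. FastQC 0.11.8, STAR 2.6.1, HTSeq (with no version) and DESeq2 1.34.0 with build mm39 are named in the submitters' processing notes. The authors deposited raw counts per gene, and a table with a log2 fold change, p-value and q-value from DESeq2, per the column description they deposited. Groups were taken from sample titles.

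The test was the quasi-likelihood test (robust glmQLFit, then glmQLFTest) of edgeR 4.0.16 under R 4.3.3, after TMM normalization and filterByExpr with a minimum count of 10. Intervals are 95% and come from the quasi-likelihood F. Alternatives were DESeq2 size factors, no filter, DESeq2 1.42.0, limma-voom (limma 3.58.1), a replicate block, thinning and leaving out each library. The longest coding transcript was added after the data were seen. Exon lengths came from Gencode vM21, an earlier build. The scripts were tested on simulated data. Libraries held 18.9 to 22.9 M counts, and relative counting error is largest, among members, for Cdkn1c and then Rb1.

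The members, lists and motifs were chosen with earlier results of these data or the sequences known. Named were all members, the 4 called genes of smallest p in each list and a fixed set of partners. Within a group, pairs of libraries differed beyond counting noise (chi-square over degrees of freedom 1.20 to 1.38), so none was taken for a copy. Figures were drawn with matplotlib 3.10.9.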

Additional observations from a re-analysis of the deposited data

How the results depend on the processing

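Over 12 alternatives, Ccnd1, Ccnd2, Cdk4, Cdk6, Cdkn1c, Cdkn2c and Rb1 kept their direction and their call. Ccnd3, at -0.017, ranged from -0.025 to 0.0065 when 1 library was left out, and was above 0 without palmitate replicate 1. Cdkn2b, at -0.014, ranged from -0.074 to 0.025 over the 12 alternatives and from -0.045 to 0.025 when 1 library was left out, with 0.013 without vehicle replicate 2 and 0.025 without palmitate replicate 1. None of these was called, and the cause was not tested. The list of cyclin D turnover and G1 input had 17 called genes with DESeq2. The number of members called was 7 to 9 without 1 library and 8 with the replicate block. Over all genes 7933 were called with the replicate block and 5899 with DESeq2, against 7915. Pairing of the samples by replicate number was not seen in the counts. Deviations of same-numbered libraries from their group means correlated at -0.0045, 0.0085 and 0.0071 across genes. Libraries of unlike number correlated at -0.020 to 0.012. Values this near 0 cannot show that the cultures were unpaired. With 3 libraries against 3, an exact permutation test cannot go below 0.1.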
